A study of Rattus norvegicus with 3 samples.

Results

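The comparison set the testis of rats on postnatal day 10 against the testis on postnatal day 6, across every gene probed on a NimbleGen expression array. The members are the 26419 probe sets of the array, all rows but 1 random-sequence control, and for each the log2 intensity of the day 6 array was taken from that of the day 10 array. The 2 arrays are part of a set of 3, with days 6, 8 and 10 each represented by 1 array. All arrays came from pups of Wistar-Imamichi rats, a Wistar stock, bred by natural mating, with no treatment or mutation named, and the day of birth was called day 1. Testes were collected individually, and the labels do not say how many animals gave each RNA. The stated aim was a screen by fold change, at a threshold of 2-fold, between early stages of testis development.

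In the young rat testis the seminiferous cords hold dividing Sertoli cells, the somatic nurse cells, and germ cells that have just resumed division and are settling as spermatogonia on the cord wall. Between the cords lie fetal-type Leydig cells, which make androgen and later give way to the adult population, with peritubular, endothelial and immune cells. The first wave of spermatogenesis starts in this window, the tight junction barrier between Sertoli cells is not yet built, and many imprinted genes of fetal growth are known to be turned down in the weeks after birth.

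With 1 array per day there is no spread between animals or arrays, so there was no test and no check of any difference by replicates. The effects of age, of animal and of array cannot be told apart, and each value below compares 2 arrays. The day 10 array stood apart from both others. Against day 8 it had 1203 probe sets (8.56%) past 2-fold upward and 1936 (13.8%) downward, close to its counts against day 6 given below, whereas day 8 against day 6 had 72 (0.53%) and 133 (0.979%). Within arrays, probe sets that target the same gene gave log2 differences between days 10 and 6 with a median SD of 0.21 and a pooled SD of 0.41 (66 genes), which covers the probes only. Levels below are log2 intensities, a difference is log2 of day 10 over day 6, and the floor is the median of all probe sets of an array (7.67 on day 10, 7.79 on day 8 and 7.78 on day 6). Where the dimmer day lay under its floor, the fold is a lower bound against that floor, written "at least".

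The tissue label was checked against markers of the cells a testis sample can hold. The Sertoli markers matched by name were above the floor on both days, from Inha at 14.51 on day 10 and 14.21 on day 6, and Wt1 at 13.13 on day 10 and 14.06 on day 6, down to Fshr at 7.83 on day 10 and 8.88 on day 6. The germ cell helicase Ddx4 had 11.33 on day 10 and 11.17 on day 6, and the smooth muscle actin Acta2 had 15.08 on day 10 and 15.31 on day 6. The epididymal markers Crisp1 and Lcn5 were under the floor on every day, as were the fat markers Adipoq and Fabp4. Some genes of skeletal muscle passed it, and their values stand beside the muscle genes below. The list of mesothelium, epididymis and rete genes had 10 of 15 members above the floor, 2 past 2-fold upward and 1 downward (median 0.24; -0.09 with the span trend described below subtracted), and the mesothelial marker Msln was 2.53-fold higher (10.96 on day 10 and 9.62 on day 6). Its summed intensity was 23752 on day 10 and 32000 on day 6, and it includes the bright Wt1, also a Sertoli marker. In whole tissue, fewer cells of a type and less RNA per cell cannot be told apart.

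Of the 26419 probe sets, 14046 passed the floor on day 10, on day 6 or on both. Of these, 1204 (8.57%) were higher on day 10 by 2-fold or more and 1804 (12.8%) were lower by as much, so that 60.0% of the changed probe sets were lower. A further 7857 (55.9%) differed by less than 1.5-fold. Centring each array on its own median moved the split to 1529 higher and 1520 lower, or 49.9% lower, and the median of all differences to 0.14, against 0.02 as deposited, so the balance of directions depends on the scaling and the names and ranks below are read relative to other genes. Large changes were few. At 4-fold or more there were 131 higher and 262 lower probe sets, and at 8-fold or more 6 and 24. With values under the floor raised to it, these counts were 45 and 100 at 4-fold, 0 and 3 at 8-fold, and 856 and 1433 at 2-fold. Of the 1204 higher probe sets, 726 were above the floor on both days and 478 on day 10 alone. Of the 1804 lower ones, 1197 were above it on both days and 607 on day 6 alone.

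A gene symbol could be given to 9747 probe sets, which stand for 9627 genes. Among the 5519 named genes above the floor, 247 (4.48%) exceeded 2-fold upward on day 10 and 644 (11.7%) downward. The 8440 unnamed probe sets above the floor, mostly predicted transcripts, had a larger share of higher values, at 950 (11.3%), and 1142 (13.5%) lower. The counts of gene groups that follow are over named genes and stand against 4.48% higher and 11.7% lower.

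**Figure D1:**
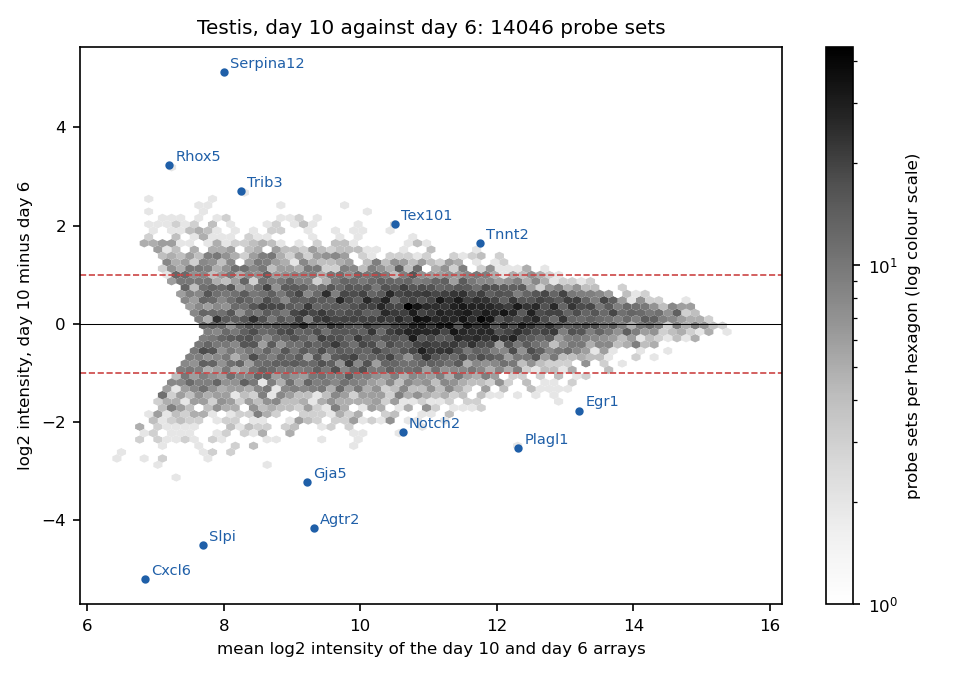
Log2 difference, day 10 minus day 6 (vertical axis), against the mean log2 intensity of the 2 arrays (horizontal axis) for the 14046 probe sets that passed the floor. Grey hexagons count probe sets, dashed lines mark 2-fold, and blue points are named genes from the text. Differences narrow toward bright probe sets, and more points lie below the lower line (1804) than above the upper one (1204).

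The size of the differences varied with brightness. Among the dimmest of 10 equal groups of named genes, with a median level of 7.77, 13.8% passed 2-fold upward and 33.0% downward. Among the brightest, with a median level of 13.84, the shares were 0% and 1.63%. The dimmest group lies at the floor, where a gene whose days differ is more likely to pass on 1 of them, so the filter itself favours large differences there. The span of the gene on the genome, introns included, was related to direction. In the group with the shortest genes (median 2.60 kb) 12.5% passed 2-fold upward and 2.72% downward, and in the group with the longest (median 154 kb) the shares were 1.45% and 28.8%. The step was gradual, with medians of 0.19 at 8.71 kb, -0.04 at 22.8 kb and -0.28 at 44.7 kb. Lower genes had a median span of 49.6 kb, higher genes 7.64 kb and all named genes 20.0 kb. The Spearman rank correlation across the 5519 genes was -0.43, a description over genes that share the same 2 arrays. Subtracting a smooth trend on span left 243 genes at least 2-fold higher and 486 lower, of which 158 and 438 had also passed 2-fold without it. Beside the median of most gene groups, the median with that trend subtracted is given below.

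**Figure D2:**
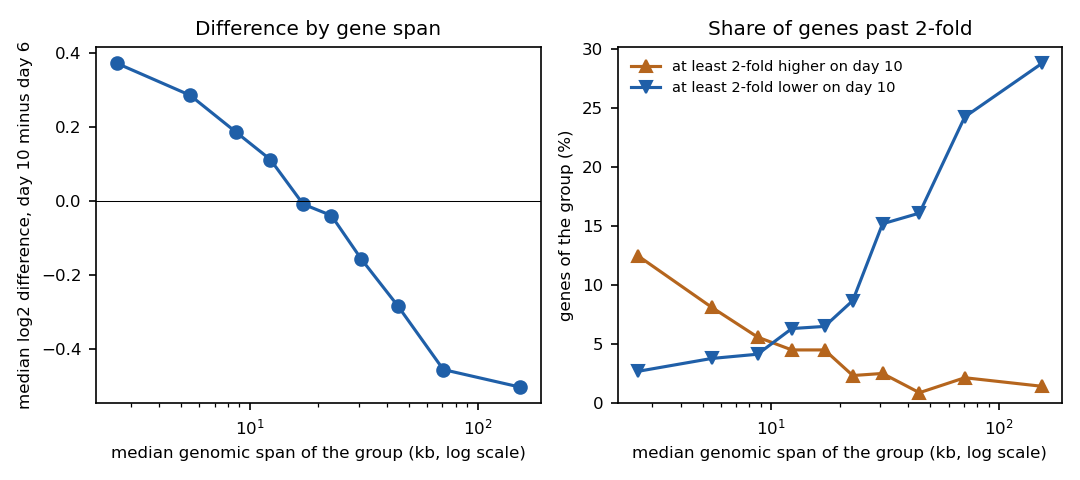
Named genes above the floor, split into 10 equal groups by genomic span. The horizontal axis is the median span of a group in kb on a log scale; the left panel gives the median log2 difference, day 10 minus day 6, and the right panel the percentage past 2-fold upward (triangles up) or downward (triangles down) on day 10. The median runs down to -0.50 in the longest group and the share of lower genes climbs to 28.8%.

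The promoter showed a second, weaker relation. Over 4542 named genes with a promoter in RefSeq (250 bases before to 50 after the start, assembly GRCr8), the median difference was -0.01 where promoters were poorest in G and C (median 45.7%), 0.20 in the fourth of 10 groups (57.7%) and -0.38 where they were richest (75.3%). Both extremes held many lower genes, at 17.1% and 18.9%. The TATA box TATAAA, searched on both strands, lay in the promoters of 13.6% of 199 higher genes, 5.74% of 505 lower genes and 6.89% of all 4542. The GC box GGGCGG lay in 45.7% of the higher, 62.6% of the lower and 63.8% of all. The E-box CACGTG (9.05% of higher, 8.91% of lower, 9.84% of all) and the AP-1 site TGAGTCA or TGACTCA (5.03%, 4.36% and 3.87%) were as common in the changed sets as overall or nearly so. The GATA site GATAAG was found in 6.53% of higher, 4.55% of lower and 5.04% of all, the cAMP element TGACGTCA in 1.01%, 1.98% and 3.08%, and the steroidogenic factor site CAAGGTCA in 2.01%, 0.594% and 0.903%. Over all 27457 promoters of the table, TATAAA was found in 14.3% and GGGCGG in 34.9%. These are matches of letters and not measured binding.

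Of 76 gene lists, 71 had at least 5 members above the floor. The median of a list was 0.25 or more above that of all named genes (-0.02) in 20 lists and as far below it in 16. The lower side held receptors and their signal carriers, imprinted genes, endothelial genes, metalloproteinases, cell junctions, ion pumps, nuclear receptors and zinc finger factors. The higher side held antigen presentation, the mitochondrial machinery, the proteasome, germ cell genes, serpins and genes of skeletal muscle. The 35 lists near the overall median were of mixed kinds, with Sertoli, Leydig and peritubular markers among them. Aminoacyl-tRNA synthetases (18 genes, median 0.06), citric acid cycle enzymes (22, -0.09) and collagens (6, -0.03) had 0 members at 2-fold in either direction. Of 29 genes of DNA replication and mitosis (median 0.02), 1 was at least 2-fold lower, the cell cycle inhibitor Cdkn1a, with 8.15 on day 10 and 9.21 on day 6.

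**Figure D3:**
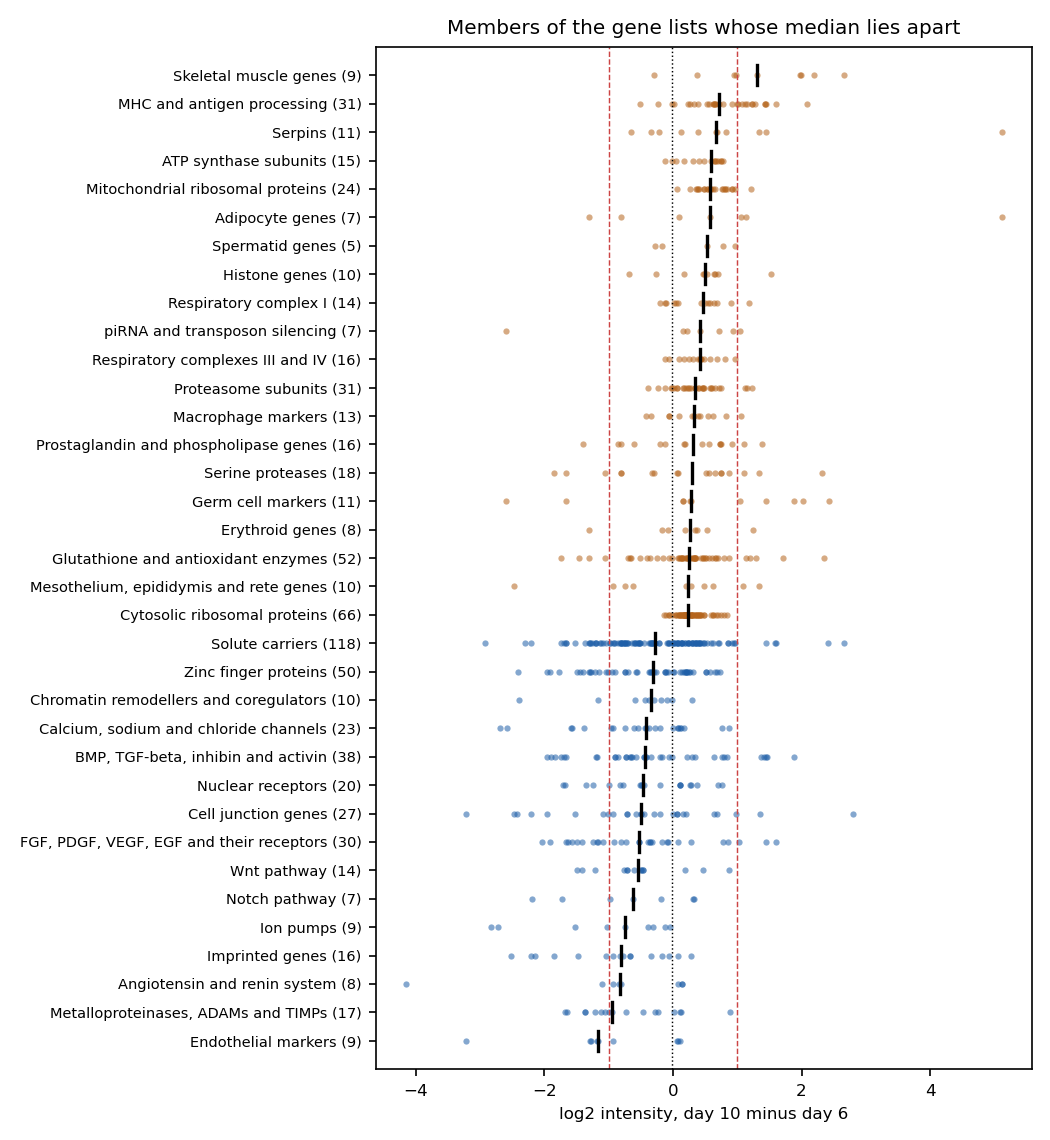
Log2 difference, day 10 minus day 6, of each member above the floor (points) in 35 of the 36 lists whose median lies at least 0.25 from that of all named genes (dotted line); the number of members is in brackets. Black bars are list medians and dashed lines mark 2-fold. Lists run down the page from skeletal muscle genes (median 1.30) to endothelial markers (median -1.17), and single members such as Serpina12 and Agtr2 lie far outside their lists.

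Receptors of the TGF-beta branch and the Smad proteins that carry their signal to the nucleus were lower on day 10. The list of BMP, TGF-beta, inhibin and activin genes had 38 of 49 members above the floor, with 8 past 2-fold downward and 5 upward (median -0.44; -0.17 with the span trend subtracted). Tgfbr1, the type I TGF-beta receptor, had 9.54, 9.36 and 7.57 on days 6, 8 and 10, at least 3.65-fold lower on day 10 than on day 6. Tgfbr2, its type II partner, had 6.63 on day 10 and 8.46 on day 6, at least 1.73-fold lower. The day 10 values of both receptors lay under the floor, and their day 8 values near those of day 6. Smad3, which acts downstream of TGF-beta and activin, was 3.24-fold lower (8.58 on day 10 and 10.28 on day 6). The shared partner Smad4 was 3.15-fold lower (10.60 and 12.25) and the BMP-side Smad5 2.26-fold lower (10.85 and 12.03). The secreted follistatin-like protein Fstl1 was 2.29-fold lower.

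In the same family several components of activin, AMH and BMP signalling ran the other way. Acvr2b, a type II activin receptor, had 8.33, 8.87 and 9.79 on days 6, 8 and 10, 2.77-fold higher on day 10 than on day 6. Amhr2, the receptor of anti-Müllerian hormone on Sertoli and Leydig cells, was 2.66-fold higher (11.36 on day 10 and 9.95 on day 6), most of it in place on day 8 (11.09), while its ligand Amh had 10.60 on day 10 and 11.32 on day 6. The ligand gene Bmp2 was at least 2.10-fold higher (8.85 and 7.40) and Gdf1, a ligand known for setting the left-right axis of the embryo, 2.58-fold higher (9.23 and 7.87). Id4, an inhibitor of helix-loop-helix factors and in mice a marker of spermatogonial stem cells, was at least 1.92-fold higher. Its levels were 6.83, 6.70 and 8.72 on days 6, 8 and 10, so it lay above the floor on day 10 alone. The inhibin subunit Inha, a Sertoli cell product, differed by 0.30.

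Receptor tyrosine kinases and their ligands were mostly lower. Of 58 genes of the FGF, PDGF, VEGF, EGF, GDNF and related systems, 30 were above the floor, 11 of them past 2-fold downward and 3 upward (median -0.53; -0.44 with the span trend subtracted). Met, the receptor of hepatocyte growth factor, was 4.10-fold lower (7.83 on day 10 and 9.86 on day 6). Fgfr3 was at least 2.32-fold lower (7.40 and 8.88), and the EGF receptor Egfr 2.37-fold lower (9.13 and 10.38), with its ligand gene Tgfa at least 2.53-fold lower (7.38 and 9.01). Kit, the receptor found on differentiating spermatogonia and Leydig cells, was 3.16-fold lower (7.93 and 9.59). Its Sertoli cell ligand Kitlg was at least 1.73-fold lower (6.88 and 8.46). Receptor and ligand of these pairs were thus lower on the same array.

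The GDNF family split within itself. These coreceptors hold ligands of the GDNF group for the kinase Ret, which maintains undifferentiated spermatogonia. Ret had 8.41, 9.50 and 9.86 on days 6, 8 and 10, 2.74-fold higher on day 10 than on day 6. Gfra4, the persephin coreceptor, was 3.03-fold higher (10.01 on day 10 and 8.41 on day 6). Gfra2, the neurturin coreceptor, was 3.75-fold lower (9.49 and 11.40). Gfra1, the GDNF coreceptor, lay under the floor on days 10 and 6 (7.64 and 7.15) and has no fold.

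Notch2 and Ptch1 were the lower receptors with the largest folds among the Notch, hedgehog and Wnt lists. Notch2, a receptor for signals between touching cells, had 11.72, 12.18 and 9.52 on days 6, 8 and 10 and was 4.58-fold lower on day 10 than on day 6. Notch3, a vascular and mural cell receptor, had 6.53 on day 10 and 8.25 on day 6. Of 12 Notch pathway genes 7 were above the floor, 2 of them lower at 2-fold and 0 higher (median -0.63; -0.47 with the span trend subtracted). Ptch1, the hedgehog receptor and itself a target of the pathway, had 11.04, 11.44 and 8.84 on days 6, 8 and 10, 4.60-fold lower on day 10 than on day 6. Of 5 hedgehog genes 4 were above the floor, too few for a list call, and the coreceptor Cdon was at least 1.15-fold lower (6.41 on day 10 and 7.87 on day 6). In the Wnt list 11 of the 14 members above the floor were below 0 and 3 passed 2-fold downward (median -0.55; -0.57 with the trend subtracted), namely Lgr4, the R-spondin receptor, 2.80-fold lower (10.79 on day 10 and 12.28 on day 6), the ligand gene Wnt5a (2.66-fold) and Apc, which marks beta-catenin for breakdown (2.31-fold).

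**Figure D4:**
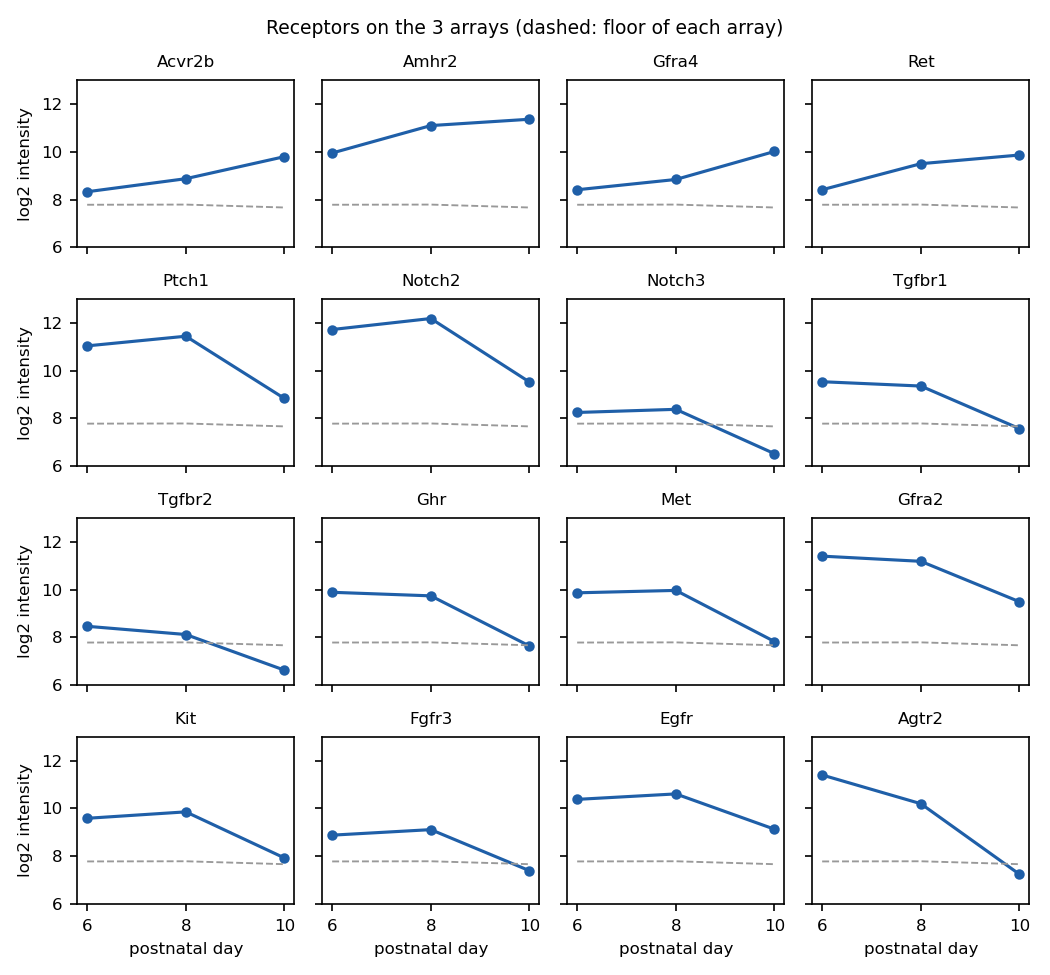
Log2 intensity (vertical axis) of 16 receptor genes on postnatal days 6, 8 and 10 (horizontal axis), 1 array per day; the dashed line is the floor of each array. Acvr2b, Amhr2, Gfra4 and Ret are highest on day 10. The other 12 are lowest on day 10, and Notch3, Tgfbr1, Tgfbr2, Ghr, Fgfr3 and Agtr2 end under the floor.

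Of 12 genes of the angiotensin and renin system 8 were above the floor, 2 past 2-fold downward and 0 upward (median -0.82; -0.51 with the span trend subtracted). Agtr2, the angiotensin receptor of fetal tissues, had 11.40, 10.20 and 7.25 on days 6, 8 and 10, the largest fall of any named gene once values are raised to the floor (at least 13.3-fold). Ghr, the growth hormone receptor, was at least 4.65-fold lower (7.64 on day 10 and 9.88 on day 6). Fshr, through which follicle-stimulating hormone drives Sertoli cell growth, was 2.08-fold lower (7.83 and 8.88), and -0.50 with the span trend subtracted. The LH receptor gene Lhcgr lay under the floor on every day. Of 34 nuclear receptors, 20 were above the floor, 4 of them past 2-fold downward and 0 upward (median -0.47; -0.27 with the trend subtracted). Among the 4 were the glucocorticoid receptor Nr3c1 (6.39 on day 10 and 8.11 on day 6, at least 1.36-fold lower), Nr2c2 (at least 2.03-fold) and Ppard (at least 1.89-fold). Ncoa2, a coactivator of these receptors, was 5.24-fold lower on day 10 than on day 6, with 10.59, 11.20 and 8.20 on days 6, 8 and 10.

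Zinc finger genes held many lower members. Of 57 zinc finger genes 50 were above the floor and 14 were at least 2-fold lower, against 0 higher (median -0.31, also with the span trend subtracted). Zfp426, Zfp180 and Zfp260 were 3.41-fold, 2.72-fold and 2.65-fold lower, Zfp386 at least 2.78-fold, and Zkscan1, a zinc finger protein with a SCAN domain, 4.83-fold lower (7.71 on day 10 and 9.98 on day 6). Sp1 and Sp4, which bind the GC box, were 2.59-fold and 3.18-fold lower. Lhx9, a homeobox factor needed for the gonad to form, had 11.74, 10.97 and 9.75 on days 6, 8 and 10, 3.98-fold lower on day 10 than on day 6. The gonadal factor Gata4 was 2.50-fold lower (12.04 on day 10 and 13.36 on day 6). Among the forkhead, GATA, Sp and KLF factors 18 of 30 were above the floor, 4 past 2-fold upward and 4 downward (median -0.11). Sp1, Sp4, Gata4 and Klf10 (2.12-fold) were the lower ones, and the higher ones were Foxd4 (at least 1.84-fold), Foxq1 (at least 1.47-fold), Klf9 (2.04-fold) and Klf2 (at least 1.27-fold).

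Immediate early factors are switched on within minutes of a growth signal. The list that holds them also holds other genes, among them Trib3 and Ddit3, and its members did not move together. Of 31 genes of the Fos, Jun, Egr and ATF list 27 were above the floor, 3 past 2-fold upward and 3 downward (median 0.04; -0.39 with the span trend subtracted), and the 3 lower ones were Egr genes. Egr1 had 14.09, 13.51 and 12.32 on days 6, 8 and 10, 3.40-fold lower on day 10 than on day 6. Egr2 was at least 1.23-fold lower (5.93 on day 10 and 7.97 on day 6) and Egr3 at least 1.52-fold (4.95 and 8.27), both under the floor on day 10. Such genes, and the muscle actins, are known for promoters with serum response elements, the binding sites of serum response factor. The 250 bases before the start of Egr1, Egr2 and the skeletal muscle actin Acta1 are shown because they hold this element in genes that moved in opposite directions (gene strand, 5′ to 3′, RefSeq, assembly GRCr8; Egr1 chr18:26736828-26737077, Egr2 chr20:21054442-21054691, Acta1 chr19:68784195-68784444). Capitals mark serum response elements and, in Acta1, the last capitals mark a TATA box.
Egr1: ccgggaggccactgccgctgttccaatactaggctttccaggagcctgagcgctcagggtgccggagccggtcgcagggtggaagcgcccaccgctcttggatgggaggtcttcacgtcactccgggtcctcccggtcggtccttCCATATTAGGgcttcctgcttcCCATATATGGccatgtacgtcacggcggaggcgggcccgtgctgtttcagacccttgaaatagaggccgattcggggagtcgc
Egr2: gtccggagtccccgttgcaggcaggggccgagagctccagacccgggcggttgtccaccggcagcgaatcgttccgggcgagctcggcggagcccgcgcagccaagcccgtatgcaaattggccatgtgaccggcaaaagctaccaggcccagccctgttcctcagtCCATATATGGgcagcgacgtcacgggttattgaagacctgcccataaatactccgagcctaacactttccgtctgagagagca
Acta1: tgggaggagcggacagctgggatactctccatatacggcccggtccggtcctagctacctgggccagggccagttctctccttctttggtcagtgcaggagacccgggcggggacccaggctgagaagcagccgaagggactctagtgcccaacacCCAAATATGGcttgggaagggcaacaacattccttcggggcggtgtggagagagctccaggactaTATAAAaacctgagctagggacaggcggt
Egr1 held 2 elements, at 105 to 96 and 83 to 74 bases before the start, Egr2 held 1 at 83 to 74, and Acta1 held 1 at 94 to 85 with its TATA box at 29 to 24. The element lay in the promoters of 1.98% of lower genes (10 of 505), 1.51% of higher genes (3 of 199) and 1.10% of all named genes above the floor. Over all promoters of the table the share was 1.64%. Egr1 and Egr2 were lower on day 10 than on day 6 and Acta1 was higher, but these 3 promoters were picked for that contrast.

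The 3 higher members of the same list were Trib3, Ddit3 and Jund. Trib3, a pseudokinase induced in stressed cells, had 6.90, 5.26 and 9.61 on days 6, 8 and 10, at least 3.54-fold higher on day 10 than on day 6. Ddit3, also called CHOP, was 3.10-fold higher (10.60 on day 10 and 8.97 on day 6), and the AP-1 member Jund 2.12-fold (10.77 and 9.69). In other lists, Phgdh, which starts serine synthesis, was 2.49-fold higher (12.30 and 10.98), and the glutamine carrier Slc1a5 3.00-fold higher (11.11 and 9.53). The membrane chaperone Canx was 2.58-fold lower (12.68 and 14.05), and the translocation channel Sec61a1 2.88-fold lower (11.15 and 12.68). The list of endoplasmic reticulum chaperones and secretion genes had 22 members above the floor, 3 lower and 0 higher at 2-fold (median -0.18), which is not 0.25 from the overall median.

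Imprinted genes, which are read from 1 parental copy and regulate growth before and after birth, were lower. Of 18 such genes 16 passed the floor, 14 of them below 0, 6 lower by 2-fold or more and 0 higher (median -0.80; -0.54 with the span trend subtracted). Mest, made from the paternal copy, had 12.31, 11.88 and 10.17 on days 6, 8 and 10 and was 4.40-fold lower on day 10 than on day 6. Igf2, the fetal growth factor, was at least 3.06-fold lower (7.43 on day 10 and 9.28 on day 6). Impact, a regulator of the amino acid sensing kinase GCN2, was 2.79-fold lower (9.72 and 11.20) and Ppp1r9a, a neuronal actin-binding protein, 2.05-fold. Near Igf2 in function, the messenger-binding protein Igf2bp1 was 2.01-fold lower and the binding protein Igfbp5 at least 3.65-fold lower (7.34 and 9.53). With Igf2 these were the 3 members of the IGF system list past 2-fold downward, against 0 upward, of 11 above the floor. The list median was -0.25 (-0.45 with the span trend subtracted), and as deposited it did not lie 0.25 from all named genes.

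Endothelial genes had the lowest median of the 71 lists. Of 12 markers 9 were above the floor and 5 were at least 2-fold lower, with 0 higher (median -1.17; -0.89 with the span trend subtracted). Gja5, an arterial connexin, was at least 8.98-fold lower (7.62 on day 10 and 10.83 on day 6), and Eng, a TGF-beta coreceptor of vessels, 2.45-fold lower (10.42 and 11.71). Clec14a was 2.43-fold lower, and the VEGF receptors Kdr and Flt4 were at least 1.31-fold and at least 1.34-fold lower. The other 4 members, completing the list, did not pass 2-fold: Pecam1 had -0.93, while Gja4, Esam and Emcn had 0.07, 0.09 and 0.12. The markers thus did not move as 1 block, and their summed intensity was 6925 on day 10 and 11725 on day 6. Gja5, Kdr and Flt4 were above the floor on day 6 alone, so they entered through the day on which they were high. The median of -1.17 rests in part on them. With only members above the floor on both days, the list median minus that of all named genes was -0.43.

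Metalloproteinases and their relatives were lower. Of 32 metalloproteinases, ADAMs and their inhibitors 17 were above the floor, 7 at least 2-fold lower and 0 higher (median -0.95; -0.56 with the span trend subtracted). The gelatinase Mmp2, among the bright genes of the array, was 3.14-fold lower (12.08 on day 10 and 13.73 on day 6), and the membrane-bound Mmp16 3.21-fold (9.52 and 11.21). The inhibitor Timp3 was 2.59-fold lower, the proteoglycan-cleaving Adamts1 and Adamts5 2.58-fold and 2.31-fold, and the sheddase Adam17 2.16-fold. Of 10 integrins 4 were above the floor, too few for a list call, and Itgb1, the beta subunit of most matrix integrins, was 2.80-fold lower (12.13 and 13.61). Collagens had differences between -0.17 and 0.56, and 27 other matrix proteins had 1 member past 2-fold upward and 4 downward (median -0.18), so neither list lay apart from all named genes.

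Cell junction genes had 27 of 55 members above the floor, 8 of them past 2-fold downward and 2 upward (median -0.49), and their median with the span trend subtracted was -0.14. The cadherin Cdh1 of epithelia and early spermatogonia was 5.54-fold lower (8.64 on day 10 and 11.11 on day 6), Cdh2, the cadherin of Sertoli cells, 2.88-fold (10.61 and 12.13), and Cdh20 at least 5.17-fold. The claudin Cldn1 was 4.63-fold lower, and Gja1, the main connexin between Sertoli cells, 2.12-fold (13.03 and 14.11). The 2 higher ones were under the floor on day 6, namely the connexin Gjb2 (at least 1.73-fold higher) and the claudin Cldn4, which had 7.75 on day 10 and 6.40 on day 6, too close to the floor for a fold. Contact ligands joined the lower genes: Efna5, an ephrin that guides cells apart, was at least 5.23-fold lower (7.23 and 10.06). Sirpa, the receptor of the "do not eat me" signal CD47, was 4.72-fold lower (9.33 and 11.57).

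Some further large falls were in enzymes of cell surface sugars and in signalling proteins. St6gal1, which adds sialic acid, had 8.76 on day 10 and 11.08 on day 6 (4.98-fold lower). Ggta1, which makes the alpha-gal sugar, was 5.23-fold lower (7.97 and 10.36), and Ndst1, an enzyme of heparan sulfate, 4.17-fold (8.81 and 10.87). Yes1, a kinase of the Src family, was at least 4.87-fold lower, Pip5k1a, which makes a membrane phosphoinositide, 4.13-fold lower, and the adaptor Gab2 5.44-fold lower.

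Ion pumps were lower and channel families differed. All 9 ion pump genes above the floor, of 18 on the array, were below 0 and 4 passed 2-fold downward (median -0.74; -0.66 with the span trend subtracted). Atp2b4, a calcium pump of the plasma membrane, was at least 2.10-fold lower (5.90 on day 10 and 8.74 on day 6), and the copper pump Atp7a at least 1.55-fold (5.58 and 8.30). The sodium pump subunit Atp1b2 was 2.89-fold lower, while Atp1b1, another beta subunit, had -0.13. Abcc9, the regulatory subunit of a potassium channel of muscle and vessel cells, was 4.31-fold lower (8.77 and 10.88). Of the calcium, sodium and chloride channels 23 of 71 were above the floor, 5 past 2-fold downward and 0 upward (median -0.43; -0.14 with the span trend subtracted, which is within 0.25 of all genes). Of the potassium channels 19 were above the floor, 3 at least 2-fold higher and 0 lower, and they included Kcnk13 (2.31-fold) and the calcium-gated Kcnn4 (at least 1.18-fold).

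Solute carriers had 118 of 233 genes above the floor, 20 past 2-fold downward and 5 upward. Their median was -0.27, and -0.22 with the span trend subtracted, which is within 0.25 of all genes. Across the alternatives, the list median minus that of all named genes ran from -0.27 to -0.06. The neutral amino acid carrier Slc7a8 was 3.33-fold lower (10.09 on day 10 and 11.82 on day 6), and the lactate exporter Slc16a3 at least 2.95-fold (7.54 and 9.23). The choline carrier Slc44a1 was read by 2 probe sets, with differences of -1.80 and -1.53. A pair of zinc carriers were higher. Slc30a2, which loads zinc into vesicles, was also read by 2 probe sets (2.41 and 2.91), and their mean was at least 3.53-fold higher on day 10 (9.60 on day 10 and 6.94 on day 6, with 8.61 on day 8). Slc39a4, a zinc importer of the cell surface, was 2.73-fold higher (10.16 and 8.71). The high-affinity choline carrier Slc5a7 was at least 2.08-fold higher, and Slc22a18 at least 1.98-fold.

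Leydig cell genes had no common direction as a list, with 15 of 19 above the floor, 3 past 2-fold downward and 1 upward (median -0.13, and -0.41 with the span trend subtracted). Of the 15, 7 were above 0 and 8 below. The summed intensity of the list was 38805 on day 10 and 57064 on day 6. Star, which delivers cholesterol for androgen synthesis, was 4.71-fold lower (9.55 on day 10 and 11.78 on day 6). The enzymes Cyp17a1 and Hsd3b1 were 2.35-fold and 2.14-fold lower. Cyp11a1, Hsd17b3 and Scarb1 had -0.71, -0.93 and -0.85, whereas Tspo and Fdxr had 0.82 and 0.62. The 1 gene past 2-fold upward was the adhesion molecule Vcam1 (2.54-fold, with 10.29 on day 10 and 8.95 on day 6). The Leydig cell hormone gene Insl3 had 9.19 on day 10 and 8.81 on day 6. Of 28 genes of cholesterol synthesis and uptake above the floor, 3 passed 2-fold downward and 1 upward (median -0.07). Soat1, which esterifies cholesterol for storage, was 2.50-fold lower (11.85 and 13.17), and Idi1, which makes a building block of sterols, 2.06-fold higher (10.75 and 9.70). Cpt1a, the gate for fatty acids into mitochondria, had 11.72, 11.73 and 9.44 on days 6, 8 and 10, 4.86-fold lower on day 10 than on day 6. The other 22 genes of fatty acid oxidation above the floor did not reach 2-fold. Sult2b1, which sulfates cholesterol, was at least 2.91-fold higher, with 6.49, 8.03 and 9.33 on days 6, 8 and 10.

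Antigen presentation was higher across much of its list. MHC molecules show peptides at the cell surface, and the immunoproteasome subunits cut those peptides under interferon. Of 47 genes 31 were above the floor, 28 of them above 0, 12 past 2-fold upward and 0 downward (median 0.71; 0.59 with the span trend subtracted). The class I gene RT1-CE11 was at least 3.26-fold higher (9.49 on day 10 and 7.41 on day 6), RT1-CE16 2.69-fold (12.15 and 10.72), and RT1-CE12 2.43-fold (11.27 and 9.99). RT1-Db1, of class II, was higher by 2.72-fold. The immunoproteasome subunits Psmb8 and Psmb9 were 2.35-fold and 2.17-fold higher (11.14 and 11.13 on day 10, 9.91 and 10.02 on day 6). Psmb10, the third such subunit, had 0.71, the peptide pump genes Tap1 and Tap2 had 0.32 and 0.65, and the shared light chain B2m had -0.23, so the light chain did not share the shift; these 4 were chosen after their values were seen. Class I genes of the RT1-CE group are near-identical copies, and signal cannot be assigned to 1 of them with certainty.

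Interferon-related genes were split. Ifi27l2b was at least 4.71-fold higher, with 7.61, 8.30 and 10.02 on days 6, 8 and 10, Ifi27 was 2.12-fold higher (12.70 on day 10 and 11.62 on day 6), and the factor Irf3, which switches on interferon genes, 2.18-fold (11.87 and 10.74). The double-strand RNA kinase Eif2ak2, itself induced by interferon, was 3.16-fold lower (8.11 and 9.77), and the cytokine signal carrier Stat3 2.35-fold lower (9.96 and 11.19). Cxcl6, a neutrophil chemokine, had the widest drop of any named gene in deposited values, with 9.44, 7.95 and 4.26 on days 6, 8 and 10, at least 3.42-fold. Slpi, a protease inhibitor of secretions, was at least 4.85-fold lower, with 9.95, 8.25 and 5.45. The macrophage list had 13 of 14 members above the floor and a summed intensity of 22614 on day 10 and 18258 on day 6, with 1 gene, complement C1qb, at least 2-fold higher and 0 lower (median 0.33; 0.09 with the span trend subtracted). Cd68 had 11.78 on day 10 and 11.48 on day 6, Csf1r 10.68 and 11.02. The part of macrophage RNA in the MHC values was not tested.

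Genes of the mitochondrial machinery lay slightly above 0 in most cases, and few passed 2-fold. All 24 mitochondrial ribosomal proteins were above the floor and had a positive difference, from 0.06 to 1.21 (median 0.58; 0.35 with the span trend subtracted), although 1 alone, Mrpl2, passed 2-fold (10.79 on day 10 and 9.58 on day 6). The 15 ATP synthase subunits had a median of 0.60 with 13 positive, led by Atp5mc1, a part of the proton-driven rotor (0.78). Complexes III and IV had a median of 0.42 (14 of 16 positive, Cox7a2 highest at 0.97), and complex I 0.47 (11 of 14 positive, Ndufs7 2.27-fold higher). With the span trend subtracted these 3 medians were 0.21, 0.24 and 0.24. The enzymes that feed the chain did not share the shift, since the citric acid cycle list had a median of -0.09 and its member with the widest difference, Pdha1 of the pyruvate dehydrogenase complex, had -0.86. Cytosolic ribosomal proteins, 61 of 66 positive, had a median of 0.23 that became -0.10 with the trend subtracted.

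Proteasome genes lay mostly above 0 as well. Of 31 subunits, all above the floor, 26 had a positive difference, 3 past 2-fold and 0 past it downward (median 0.35; 0.30 with the span trend subtracted). Besides the immunoproteasome pair the third was Psmb3, a subunit of the standard catalytic core, 2.23-fold higher (12.63 on day 10 and 11.48 on day 6). Among glutathione and antioxidant enzymes 52 of 61 were above the floor, 5 past 2-fold upward and 4 downward (median 0.25). Gsto2, which recycles vitamin C, was 3.27-fold higher (9.98 and 8.27), Gsta3 2.44-fold and Gstt2 2.30-fold. Txnip, the inhibitor of thioredoxin, was 3.33-fold lower (11.82 and 13.56), and Txnrd1, which recharges thioredoxin, 2.48-fold lower.

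Germ cell markers moved in both directions, with more higher than lower. Of 14 germ cell markers 11 were above the floor, 5 past 2-fold upward and 2 downward (median 0.27; 0.51 with the span trend subtracted), and the summed intensity of the list was 25826 on day 10 and 18328 on day 6. Rhox10, a homeobox gene known in mice for the formation of spermatogonial stem cells, had 6.46, 7.35 and 8.88 on days 6, 8 and 10, at least 2.14-fold higher on day 10 than on day 6. Tex101, found on the surface of germ cells, was higher by 4.07-fold (11.52 on day 10 and 9.50 on day 6). Id4 and Ret, given above, and Tex19.1, which restrains transposons (2.06-fold), made up the rest. Dnmt3l and Kit were the lower ones. Dnmt3l, the cofactor of DNA methylation in fetal male germ cells, was at 9.39, 6.67 and 6.80 on days 6, 8 and 10, so the drop, at least 3.30-fold on day 10, was already present on day 8. General markers had small differences, with Ddx4 at 0.15 and Uchl1 at 0.27.

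Of 15 genes of meiotic prophase 10 were above the floor, 6 above 0 and 4 below it, 2 past 2-fold upward and 0 downward (median 0.10), so the list did not lie apart. The 2 were Syce1 and Ccnb1ip1. Syce1, of the synaptonemal complex, was at least 2.57-fold higher (9.14 on day 10 and 6.99 on day 6) and Ccnb1ip1, which acts in meiotic crossing over, at least 1.77-fold (8.61 and 7.13). Tuba3a, an alpha-tubulin of the testis, had 10.84, 11.93 and 12.61 on days 6, 8 and 10 and was 3.41-fold higher on day 10 than on day 6. Naa11, a testis acetyltransferase of protein ends, was at least 3.34-fold higher (7.13, 8.02 and 9.52). The testis cytochrome c Cyct (2.82-fold), the testis lipid-binding protein Fabp9 (2.79-fold) and the kinesin light chain Klc3 of sperm tails (2.57-fold) were higher as well. Of 30 spermatid genes 25 lay under the floor on both days, and of the 5 others Tnp1, a chromatin protein of spermatids, was highest in difference (0.97, with 8.11 on day 10).

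Sertoli cell markers had no common direction, with 2 past 2-fold upward and 3 downward. Rhox5, an androgen-driven homeobox gene of Sertoli cells, had 5.59, 5.81 and 8.82 on days 6, 8 and 10, so it appeared above the floor on day 10 alone (at least 2.06-fold higher). The cystatin gene Cst12 was 3.00-fold higher (10.40 on day 10 and 8.81 on day 6). Outside the marker list, the junction-associated protease relative Testin was 2.95-fold higher (11.16 and 9.60), and the serpin Serpina5 2.73-fold higher (9.78 and 8.33). Clu, the abundant Sertoli glycoprotein clusterin, had 0.53. The 3 lower markers were Gata4, Fshr and Kitlg. The whole list had 16 of 17 members above the floor and a median of -0.23 (0.04 with the span trend subtracted).

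Genes of striated muscle had the highest list median, 1.30, and 1.43 with the span trend subtracted. Of 22 genes 9 were above the floor, 8 with a positive difference and 5 at least 2-fold higher. Actc1 and myoglobin were above it on day 10 alone, so they entered through the day on which they were high. With no floor, the list median minus that of all named genes was 0.39, against 1.32 with the floor. Actc1, cardiac actin, had 7.06, 5.71 and 9.26 on days 6, 8 and 10, at least 2.78-fold higher on day 10 than on day 6. Myoglobin (Mb) was at least 3.93-fold higher (9.76 on day 10 and 7.09 on day 6), Acta1 3.98-fold (9.81 and 7.82), and Sln, an inhibitor of the muscle calcium pump, 2.47-fold (9.84 and 8.54). The skeletal muscle marker Tnnc2, a troponin C, was above the floor on both days and 3.94-fold higher (9.80 on day 10 and 7.83 on day 6). The troponin T genes Tnnt3 and Tnnt1 had 0.95 and -0.29. Tnnt2, cardiac troponin T, which is not in the list, was 3.12-fold higher at a bright level (12.58 and 10.94). Other defining muscle genes were under the floor on every day, among them Ckm (7.17 and 5.52) and the embryonic myosin Myh3 (5.48 and 5.71). The list summed to 14496 on day 10 and 8323 on day 6, with 5529 on day 8, and whether muscle beside the testis contributed was not tested. Serpina12, an adipokine, had 5.44, 5.58 and 10.56 on days 6, 8 and 10 (at least 6.84-fold higher), the largest rise of any named gene once values are raised to the floor, a rise not seen on day 8. It counts in the list of adipocyte genes, of which 7 of 15 were above the floor, 3 past 2-fold upward and 1 downward (median 0.58; 0.60 with the span trend subtracted). The other 2 higher members were Cfd, the adipokine adipsin (at least 1.97-fold, with 8.76 on day 10 and 7.62 on day 6), and the factor Cebpa (at least 1.19-fold, with 8.04 and 6.98), and the lower one was the lipase Lpl. The 3 higher members were above the floor on day 10 alone and Lpl on day 6 alone, so each entered through its high day. With no floor, the median of the adipocyte list minus that of all named genes was 0.09, against 0.60 with the floor. The fat markers Adipoq (5.01 and 5.09) and Fabp4 (6.90 and 6.63) were under the floor. The list summed to 5763 on day 10 and 4959 on day 6, and the part of fat cell RNA was not tested.

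**Figure D5:**
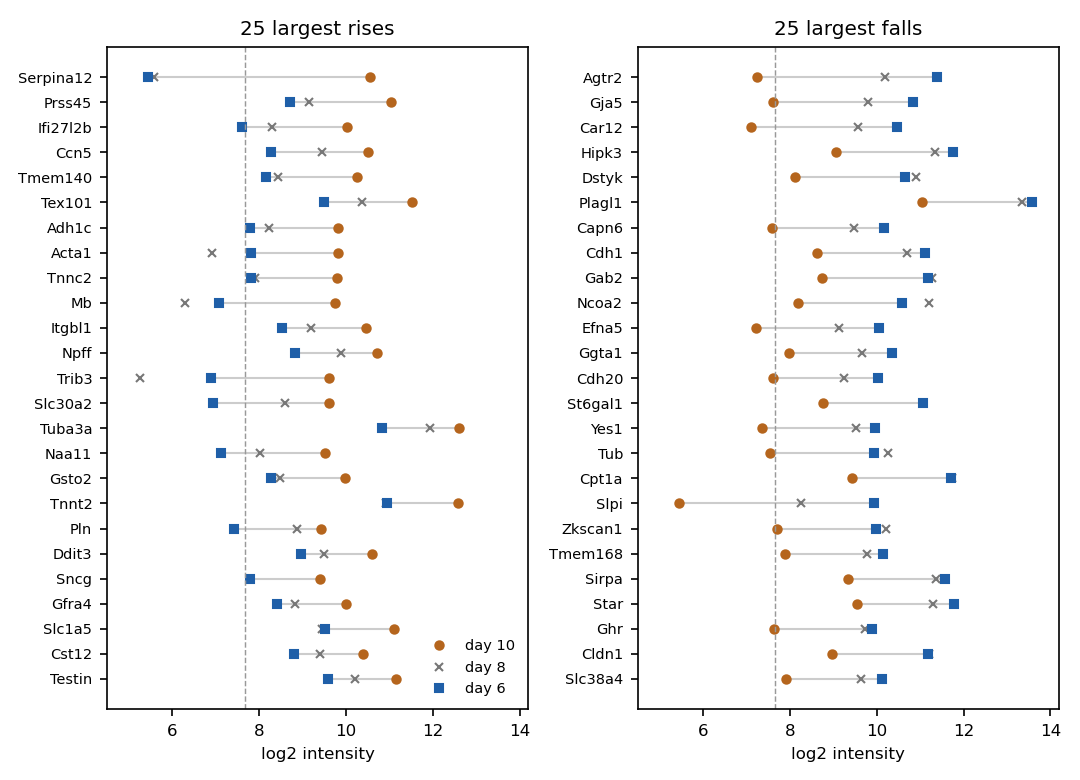
Log2 intensity (horizontal axis) of the 25 largest rises (left) and the 25 largest falls (right) among named genes once values are raised to the floor, on day 10 (circles), day 8 (crosses) and day 6 (squares). The dashed line is the day 10 floor of 7.67. For all 25 falls the day 8 value lies nearer to day 6 than to day 10, and Serpina12 spans the widest range on the left.

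Further large rises were spread over unrelated functions. Prss45, a serine protease, was 4.97-fold higher (11.03 on day 10 and 8.72 on day 6), the matricellular protein Ccn5 4.69-fold (10.50 and 8.27), and the alcohol dehydrogenase Adh1c 4.06-fold (9.81 and 7.79). Itgbl1, a secreted relative of the beta integrins, was 3.81-fold higher (10.46 and 8.53), and the neuropeptide gene Npff 3.69-fold (10.72 and 8.83, with 9.89 on day 8). Pln, a regulator of the calcium pump in muscle, was at least 3.11-fold higher (9.42 and 7.43, with 8.87 on day 8). The synuclein gene Sncg was 3.06-fold higher, the phosphatase Ptpn18 at least 2.95-fold and Jakmip1, a microtubule-associated protein, 2.87-fold (11.92 and 10.39).

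Among the remaining large falls, Plagl1, an imprinted zinc finger factor that restrains growth, was 5.73-fold lower at a bright level (11.05 on day 10 and 13.57 on day 6). The carbonic anhydrase Car12 was at least 6.94-fold lower and the kinases Hipk3 and Dstyk 6.48-fold and 5.81-fold. Tubb2b, a beta-tubulin of growing neurons, was 4.33-fold lower (8.02 and 10.13), Lmcd1, a cofactor that represses GATA6, 4.40-fold (8.96 and 11.10, with 9.78 on day 8), and Tub at least 4.86-fold (7.55 and 9.95). Sgpl1, which breaks down sphingosine-1-phosphate, was at least 4.25-fold lower, the splicing regulator Ptbp3 at least 4.08-fold, and Dck, a kinase that salvages deoxynucleosides, at least 4.05-fold.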

How the data were processed

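Total RNA of rat testis was labelled with Cy3 and hybridised to single-colour NimbleGen arrays, 1 per day; the day is the one each label states. The authors deposited 1 linear intensity per RefSeq accession, made with RMA per the submitters' processing notes; no version or setting of it is given in the sources used here. RMA commonly includes a step that equalises arrays, which can remove changes common to most genes, although the deposited medians still differed (220, 221 and 203 on days 6, 8 and 10). Intensities were taken to log2. Symbols, spans and promoters came from RefSeq tables of GRCr8; the files name no build, and that assembly was used through gene names alone, for spans, promoter composition and motifs; the coordinates printed are those of 3 promoters. Probe sets of a symbol were averaged.

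The floor was the higher of the array's median and the 95th percentile of 1239 olfactory and vomeronasal receptors (5.70, 5.60 and 6.11 on days 6, 8 and 10), and the median decided each time. The random control had intensities of 25.0, 24.6 and 25.6. A feature entered when above the floor on at least 1 day. The span trend was a lowess fit (fraction 0.3, 3 iterations; statsmodels 0.14.6). The number of arrays limits the precision.

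Genes were named by a rule: the 40 largest rises and falls raised to the floor, up to 6 members per list and direction past 2-fold, or else the widest, and 46 markers, of which 36 matched by name; this gave 322 genes. Members of a list named beyond this rule were chosen after their values were seen. The members and lists were chosen with earlier results of these data known, and stray matches were removed from lists by the meaning of the symbol. Alternatives were 3 other normalizations (limma 3.58.1), other floors, other fold thresholds, curated accessions alone, gene averages, the span trend and the deposited series table. Counting was tested on simulated data. Protein lengths were not computed. Some genes and lists are not reported here.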

Additional observations from a re-analysis of the deposited data

How the results depend on the processing

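No paired analysis was possible because each day had 1 array, and no replicate could be left out. At 1.5-fold the counts of probe sets were 2857 higher and 3332 lower (named genes 820 and 1255), and at 3-fold 335 and 652 (named genes 53 and 232). With curated accessions alone they were 265 and 691. Requiring both days above the floor gave 726 and 1197 (named genes 158 and 425), and with no floor 1926 probe sets and 422 named genes were higher; these counts follow from more or fewer features entering. Centring moved the median of all named genes to 0.09. Among changed probe sets, 54.9% were lower after quantile normalization and 57.6% after cyclic loess. With the span trend subtracted, 3 list medians, taken against that of all named genes, turned negative: cytosolic ribosomal proteins (-0.11), histones (-0.071) and mesothelium, epididymis and rete (-0.10). Of the lists called, 6 of 20 higher (germ cell markers, MHC, mitochondrial ribosomal proteins, proteasome, skeletal muscle and piRNA) and 6 of 16 lower (angiotensin system, endothelial, FGF and related systems, imprinted, ion pumps and Wnt) kept their call under every alternative. Of the 322 genes named by the rule, those past 2-fold kept their direction under the alternatives run. For most alternatives this could not come out otherwise. Other floors and the series table leave the difference of a gene unchanged, and centring shifts all genes by the same small amount. Only the span trend, quantile normalization and cyclic loess could have turned a direction. The span trend put 62 on the other side of 2-fold, centring 24, quantile normalization 13 and cyclic loess 7.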

Other observations

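Several smaller groups were not described above. Vesicle traffic genes of the Rab family had 32 of 37 members above the floor, 5 at least 2-fold lower on day 10 and 0 higher (median -0.16): Rab31 (2.60-fold), Rab5a (2.45-fold), Rab5b (2.35-fold), Rab27a (at least 2.01-fold) and Rab15 (at least 1.70-fold). The list of aldehyde and alcohol dehydrogenases had 30 of 47 members above the floor, 4 past 2-fold downward and 1 upward. Its median was 0.13, which is not 0.25 from that of all named genes. Of its lower members, 3 act in retinoic acid synthesis and carriage. Aldh1a2, which makes retinoic acid, had 8.49 on day 10 and 9.93 on day 6. Rdh10, which makes retinaldehyde, was 2.16-fold lower and the carrier Crabp2 2.25-fold lower. The far brighter Aldh1a1, of the same enzyme family as Aldh1a2, had 14.64 on day 10 and 14.89 on day 6 (-0.25). Cyp26b1, which breaks retinoic acid down, was also lower, at least 2.14-fold (7.44 on day 10 and 8.77 on day 6). Mat2a, which makes the methyl donor S-adenosylmethionine, was 2.72-fold lower at a bright level (11.85 on day 10 and 13.29 on day 6).

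Among ubiquitin ligases and deubiquitinases 79 of 100 were above the floor, 7 at least 2-fold lower and 2 higher (median -0.03). Marchf7 was 2.81-fold lower and Rnf44 2.56-fold lower (11.61 on day 10 and 12.97 on day 6), and Fbxo2, which recognises sugar-bearing proteins, was 2.23-fold higher (9.58 and 8.43). The cytokine receptor gene Il13ra1 and the osteoprotegerin gene Tnfrsf11b were 3.14-fold and 2.25-fold lower.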
